A study of Mus musculus with 58 samples.

Results

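The genes described here encode the proteasome, the protease that degrades proteins marked with ubiquitin. They were taken as every listed gene symbol that begins with Psma, Psmb, Psmc, Psmd, Psme or Psmf followed by a digit and that had at least 20 counts over all cells. The pattern matched 46 of the 23152 listed symbols, and all 46 passed the minimum, as did 10937 symbols in the whole table. By known role, 14 encode the constitutive core particle, 3 the inducible catalytic subunits of the immunoproteasome (Psmb8, Psmb9 and Psmb10), 17 the regulatory cap and 4 the proteasome activators. The other 8 are 2 tissue-limited core subunits (Psma8 and Psmb11), 3 chaperones of cap assembly (Psmd5, Psmd9 and Psmd10), the inhibitor Psmf1, Psme2b, which is a copy of Psme2, and Psmc3ip, which matches the pattern by name but encodes a recombination cofactor and no proteasome part.

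The study sorted single bone marrow cells of wild-type C57BL/6 mice and sequenced the ends of their polyadenylated RNA. Long-term haematopoietic stem cells (LT-HSC) were gated as lineage-negative, Kit+, Sca1+, Flt3- and CD34-. Common myeloid progenitors (CMP) were gated as lineage-negative, Kit+, Sca1-, CD16/32- and CD34+. The labels give no age and no animal for a cell, and carry a passage entry of 8 to 10 for both gates. The 58 cells are described as LT-HSC 1-16 (16 cells), LT-HSC 17-34 (18 cells) and CMP (24 cells); the labels number the cells but do not say what the division at cell 16 stands for.

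The pools held 3410149 counts in LT-HSC 1-16, 6520982 in LT-HSC 17-34 and 7062737 in CMP. Single cells held 45022 to 860553 counts in LT-HSC and 88329 to 706184 in CMP. Each gate is 1 sample, because no animal is named, so no difference below has a replicate check and no p-value was computed. Intervals are exact 95% intervals that cover counting error only. They take each count as an independent event, although whether a count is a molecule or a read is not given. When every cell was thinned to 97978 counts, the median cell held 3296 genes in LT-HSC and 5509 in CMP. Xist, whose RNA shuts down an X chromosome in females, was at 0 counts in all 34 LT-HSC and in CMP 1 and CMP 2, and had between 7 and 226 counts in the 22 remaining CMP cells. Gate and donor sex therefore cannot be told apart in most of the data, and the values without CMP 1 and 2, or against those 2 cells alone, stand beside the results they touch. The stem cell marker list, with all 9 of 9 genes detected over the LT-HSC, summed to 1136 CPM in LT-HSC 1-16, 559 CPM in LT-HSC 17-34 and 146 CPM in CMP. Mllt3, Slamf1 and Fgd5 had 305, 47.5 and 33.1 CPM in LT-HSC 1-16, 12.1, 5.21 and 0.15 CPM in LT-HSC 17-34, and 21.1, 5.38 and 0.85 CPM in CMP, and Hoxb5 had no count in LT-HSC 17-34. The others were higher in both LT-HSC sets than in CMP. Procr, Hlf, Mecom, Meis1 and Ly6a had 216, 137, 41.1, 140 and 171 CPM in LT-HSC 1-16. They had 67.6, 47.5, 15.9, 300 and 111 CPM in LT-HSC 17-34, and 0.85, 13.3, 3.96, 85.5 and 15.15 CPM in CMP. The 9 myeloid progenitor markers summed to 550 CPM in LT-HSC and 5505 CPM in CMP. Of other cell types, Ms4a1, Pax5, Cd3d, Cd3e, Cd3g and Adgre1 had no count in any set. Not all markers of these types were absent. Of 7 macrophage or dendritic cell genes, 3 had a count in LT-HSC and 6 in CMP. Among them, Csf1r had 0.59 CPM in LT-HSC 1-16, 0 in LT-HSC 17-34 and 20.8 CPM in CMP. The T or NK cell gene Klrd1 had no count in LT-HSC and 13.9 CPM in CMP. The cytotoxic granule gene Nkg7 had 2.35 CPM in LT-HSC 1-16, 530 CPM in LT-HSC 17-34 and 427 CPM in CMP, the B cell gene Cd79b 58.6, 92.3 and 47.1 CPM in the same sets, and 9 mature neutrophil markers summed to 312, 349 and 907 CPM. The part of these markers in the results below was not tested.

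The proteasome is a barrel of stacked rings, with outer rings of alpha subunits that gate the entrance and inner rings of beta subunits, of which the beta1, beta2 and beta5 sites cut peptide bonds. The regulatory cap recognises ubiquitin chains, removes them, unfolds the substrate with a ring of ATPases and feeds it into the barrel. In blood cells a set of inducible catalytic subunits can replace the constitutive ones during assembly and so form the immunoproteasome, which is known for making peptides for MHC class I. Activators bind the barrel in place of the cap and open it without ubiquitin, and stem cells are known to depend on well-controlled protein turnover.

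As a whole, proteasome transcripts made up nearly the same share of the RNA counts in stem cells and in progenitors. All 46 genes together gave 126.4 counts per 10000 in the LT-HSC pool (interval 125.7 to 127.1) and 124.2 per 10000 in the CMP pool (interval 123.4 to 125.0). The LT-HSC pool hid a difference between its sets, with 105.8 per 10000 in LT-HSC 1-16 and 137.2 per 10000 in LT-HSC 17-34. In single cells the lowest, median and highest shares were 84.2, 103.0 and 148.8 per 10000 in LT-HSC 1-16, 104.3, 136.4 and 175.8 in LT-HSC 17-34, and 87.9, 121.6 and 178.7 in CMP. The ranges of all 3 sets overlapped, with CMP between the LT-HSC sets at the median.

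**Figure D1:**
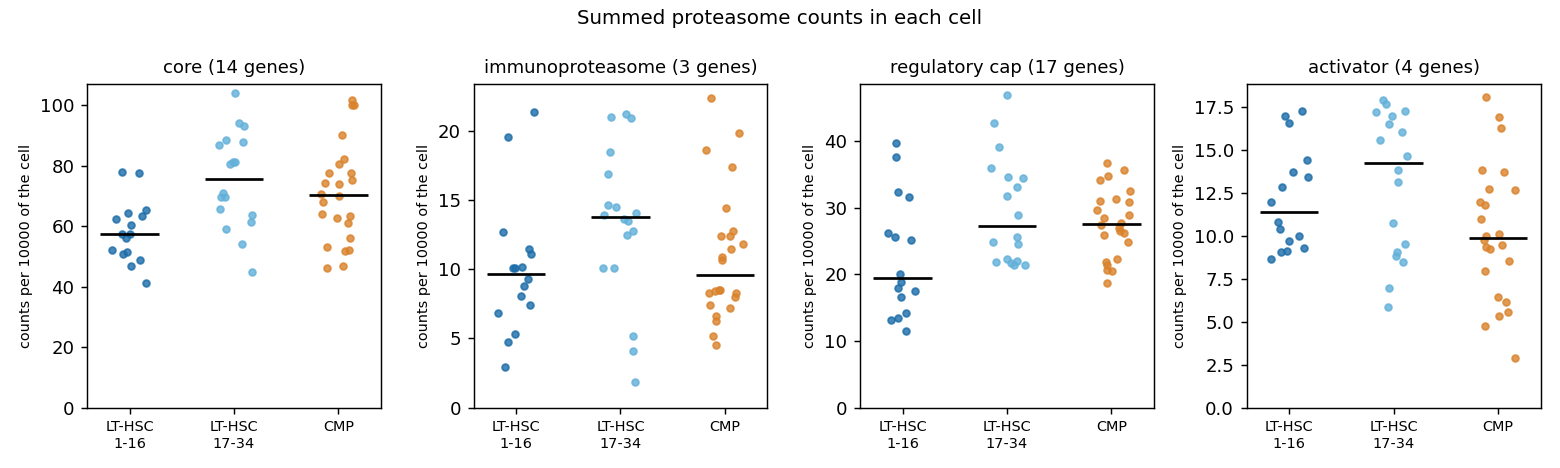
Summed counts of 4 proteasome gene groups per 10000 counts of each cell (vertical axis) in LT-HSC 1-16, LT-HSC 17-34 and CMP; each point is a cell and each bar the median. The core median is 57.4 in LT-HSC 1-16, 75.7 in LT-HSC 17-34 and 70.3 in CMP; points of the 3 sets overlap in every panel.

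Most members differed little between the gates. A gene was counted as past 2-fold when its pooled CPM, its count per 1000000 counts of the pool, differed at least 2-fold. Between LT-HSC and CMP, 8 of the 46 members were past 2-fold (2 higher and 6 lower in LT-HSC). Of all 10937 genes with at least 20 counts, 22.7% were past 2-fold higher and 28.1% past 2-fold lower, 50.8% in all. Low counts widen ratios, so genes with at least 1000 counts give a closer comparison: 4 of the 38 members at that level were past 2-fold, against 21.5% of all such genes. The median size of the log2 ratio, without its sign, was 0.23 over those 38 members and 0.48 over all genes with at least 1000 counts. Of the 31 constitutive core and cap genes, 27 differed by less than 2-fold between LT-HSC and CMP. The exceptions were Psmc4, which was higher in LT-HSC, and Psmb7, Psmc6 and Psmd2, which were lower.

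Set by set, 8 of the 46 members were past 2-fold between LT-HSC 1-16 and CMP (60.0% of all genes), 7 between LT-HSC 17-34 and CMP (54.5% of all genes) and 8 between LT-HSC 1-16 and LT-HSC 17-34 (56.1% of all genes). With at least 1000 counts, 3, 3 and 5 of the 38 members were past 2-fold in the same order. The shares of all such genes were 32.8%, 23.4% and 27.6%. The first 2 of these comparisons share the CMP cells. Scaling the pools by the median of gene ratios in place of totals adds a constant to every log2 ratio. The constant is 0.13 for LT-HSC to CMP, 0.25 for LT-HSC 1-16 to CMP and 0.15 for LT-HSC 17-34 to CMP. For LT-HSC 1-16 to LT-HSC 17-34 it is 0.05. Small differences below therefore depend on the scaling, and so do 2-fold calls near the limit. Between LT-HSC and CMP, Psmb7, Psmc6 and Psmb11 fall short of 2-fold with this scaling.

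**Figure D2:**
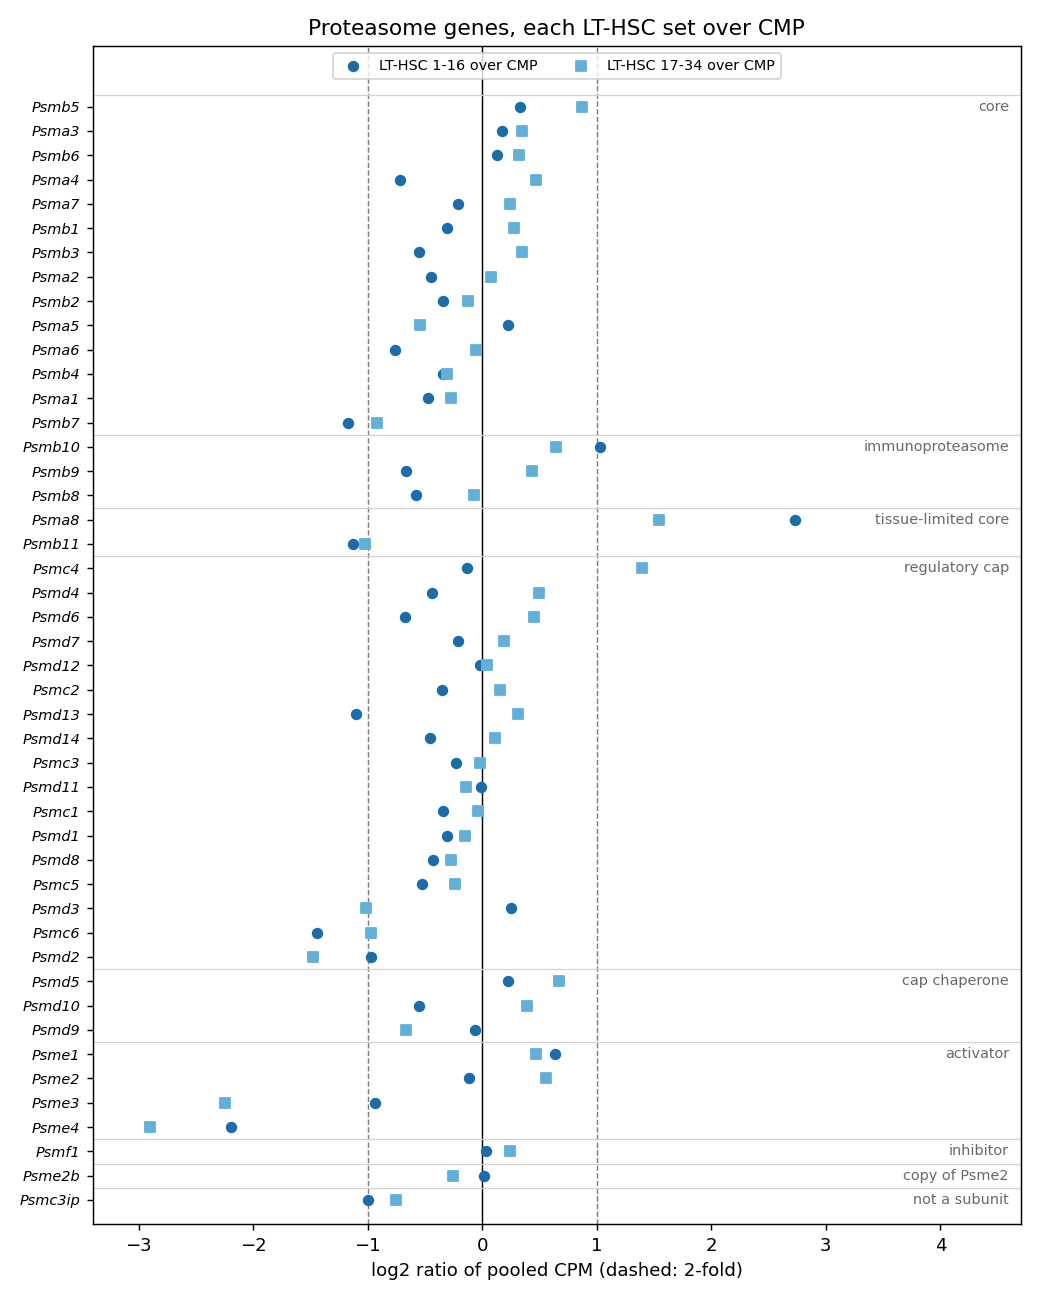
Log2 ratio of pooled CPM (horizontal axis) for all 46 genes by group, as LT-HSC 1-16 over CMP (circles) and LT-HSC 17-34 over CMP (squares), with dashed lines at 2-fold. Most points lie between the dashed lines; Psme4, at -2.20 and -2.90, lies farthest to the left.

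None of the 7 alpha ring genes was past 2-fold between LT-HSC and CMP, and their log2 ratios ran from -0.34 for Psma1 to 0.29 for Psma3. Psma3 had a lowest, median and highest cell value of 143, 640 and 996 CPM in LT-HSC 1-16, 262, 587 and 2436 CPM in LT-HSC 17-34, and 245, 542 and 1232 CPM in CMP. Its highest value was in LT-HSC 28, and the ranges of the 3 sets overlapped. Psma1 had pooled values of 349 CPM in LT-HSC 1-16, 403 CPM in LT-HSC 17-34 and 486 CPM in CMP, and 19 of 24 CMP cells were above the LT-HSC median. The log2 ratios of the other alpha genes lay between those of Psma1 and Psma3.

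Some alpha genes separated the LT-HSC sets more than the gates. Psma4 had 226 CPM in LT-HSC 1-16, 514 CPM in LT-HSC 17-34 and 371 CPM in CMP, which is 2.28-fold lower in LT-HSC 1-16 than in LT-HSC 17-34. That log2 ratio of -1.19 ran from -1.39 to -0.98 when 1 cell at a time was left out, and was -0.78 with the CPM of single cells averaged. Psma6 had 267 CPM in LT-HSC 1-16, 437 CPM in LT-HSC 17-34 and 454 CPM in CMP. Psma5 ran the other way, with 388 CPM in LT-HSC 1-16, 228 CPM in LT-HSC 17-34 and 332 CPM in CMP, and was the only core gene higher in LT-HSC 1-16 than in LT-HSC 17-34. Of the CMP counts of Psma5, 21.9% came from CMP 1, and its LT-HSC over CMP log2 ratio was 0.01 without CMP 1 and 2 and -0.99 against those 2 cells alone. Exons of Psma4 and Psma5 overlap another gene on the opposite strand (AY074887 and 1700010K24Rik), and whether strand was used in counting is not given in the sources used here.

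Among the structural beta subunits, which do not cut, none was past 2-fold between the gates, with LT-HSC over CMP log2 ratios from -0.32 for Psmb4 to 0.10. Psmb3 separated the LT-HSC sets, with 410 CPM in LT-HSC 1-16, 766 CPM in LT-HSC 17-34 and 602 CPM in CMP. In single cells it ran from 32.7 through a median of 352 to 1016 CPM in LT-HSC 1-16, from 196 through 739 to 1313 CPM in LT-HSC 17-34, and from 251 through 540 to 1347 CPM in CMP. Of the LT-HSC 17-34 cells, 17 of 18 were above the median of LT-HSC 1-16. Psmb4 was level between the LT-HSC sets, at 284 CPM in LT-HSC 1-16 and 291 CPM in LT-HSC 17-34, against 360 CPM in CMP.

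The constitutive catalytic subunits moved apart from each other. Psmb5, the chymotrypsin-like beta5 subunit, was the highest core gene in LT-HSC relative to CMP, and Psmb7, the trypsin-like beta2 subunit, was the lowest. Psmb5 had 484 CPM in LT-HSC 1-16, 706 CPM in LT-HSC 17-34 and 386 CPM in CMP, a 1.63-fold higher pooled level in LT-HSC (log2 ratio 0.71, interval 0.64 to 0.77). Its lowest, median and highest cells were 7.69, 463 and 1159 CPM in LT-HSC 1-16, 4.35, 621 and 1814 CPM in LT-HSC 17-34, and 58.6, 410 and 741 CPM in CMP. Of the LT-HSC, 21 of 34 were above the CMP median, and 5 were below every CMP cell. The log2 ratio was 0.61 without CMP 1 and 2 and 1.23 against those 2 cells alone.

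Psmb7 had 150 CPM in LT-HSC 1-16, 179 CPM in LT-HSC 17-34 and 340 CPM in CMP, 2.01-fold lower in LT-HSC (log2 ratio -1.0, interval -1.10 to -0.91). Its cells ran from 0 through a median of 166 to 365 CPM in LT-HSC 1-16, from 0 through 184 to 731 CPM in LT-HSC 17-34, and from 159 through 320 to 737 CPM in CMP. Of the LT-HSC, 17 of 34 lay below the lowest CMP cell, and 22 of 24 CMP cells were above the LT-HSC median. The log2 ratio was -0.99 without CMP 1 and 2, -1.08 against CMP 1 and 2 alone and -0.90 without LT-HSC 17, so the 2-fold limit was met or missed by a small margin. Psmb6, the caspase-like beta1 subunit, had 516 CPM in LT-HSC 1-16, 592 CPM in LT-HSC 17-34 and 473 CPM in CMP, and its log2 ratio of 0.26 became -0.06 after thinning and 0.91 against CMP 1 and 2 alone. Exons of Psmb7 overlap Nek6 on the opposite strand. Those of Psmb8 overlap Gm20496 on the opposite strand, and those of Psmb5 overlap Mir686 on the same strand. Exons of Psmc3, Psmc3ip, Psmd1, Psmd3, Psmd9, Psmd13 and Psme2b also overlap other genes.

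Each inducible subunit replaces 1 constitutive subunit, so the counts of each pair show the balance of the alternative parts, as RNA and not as protein. Summed over the 3 pairs, the inducible genes made up close to the same share in every set: 46.7% of counts in LT-HSC 1-16 (Clopper-Pearson interval 45.5 to 47.8), 46.4% in LT-HSC 17-34 (45.6 to 47.1) and 48.7% in CMP (47.9 to 49.4). Pooled, CMP 1 and 2 had a share of 62.2% and CMP 3 to 24 one of 45.5%. CMP 1 was at 73% and above every other CMP cell, while CMP 2, at 55.5%, lay within the range of CMP 3 to 24, which ran from 26.7% to 64.9%. Below this even total, the pairs differed in opposite directions.

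At the beta2 site the inducible gene Psmb10 took 71.5% of the pair in LT-HSC 1-16 (interval 69.4 to 73.6), 61.8% in LT-HSC 17-34 (60.0 to 63.5) and 35.3% in CMP (33.7 to 36.8). It held more than 50% of the pair in 13 of 16 LT-HSC 1-16 cells, 11 of 18 LT-HSC 17-34 cells and 5 of 24 CMP cells. The share was 42.5% in CMP 1 and 2 and 33.3% in CMP 3 to 24, below both LT-HSC sets in either case. At the beta5 site both LT-HSC sets were below CMP, as Psmb8 took 51.0% of the pair in LT-HSC 1-16 (49.3 to 52.7), 50.3% in LT-HSC 17-34 (49.3 to 51.4) and 66.0% in CMP (65.0 to 67.0). The CMP share at beta5 was 80.2% in CMP 1 and 2 and 62.1% in CMP 3 to 24. At the beta1 site Psmb9 took 19.7% in LT-HSC 1-16 (18 to 21.4), 31.5% in LT-HSC 17-34 (30.2 to 32.7) and 29.8% in CMP (28.5 to 31.1), so that LT-HSC 1-16 stood apart and LT-HSC 17-34 was close to CMP.

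**Figure D3:**
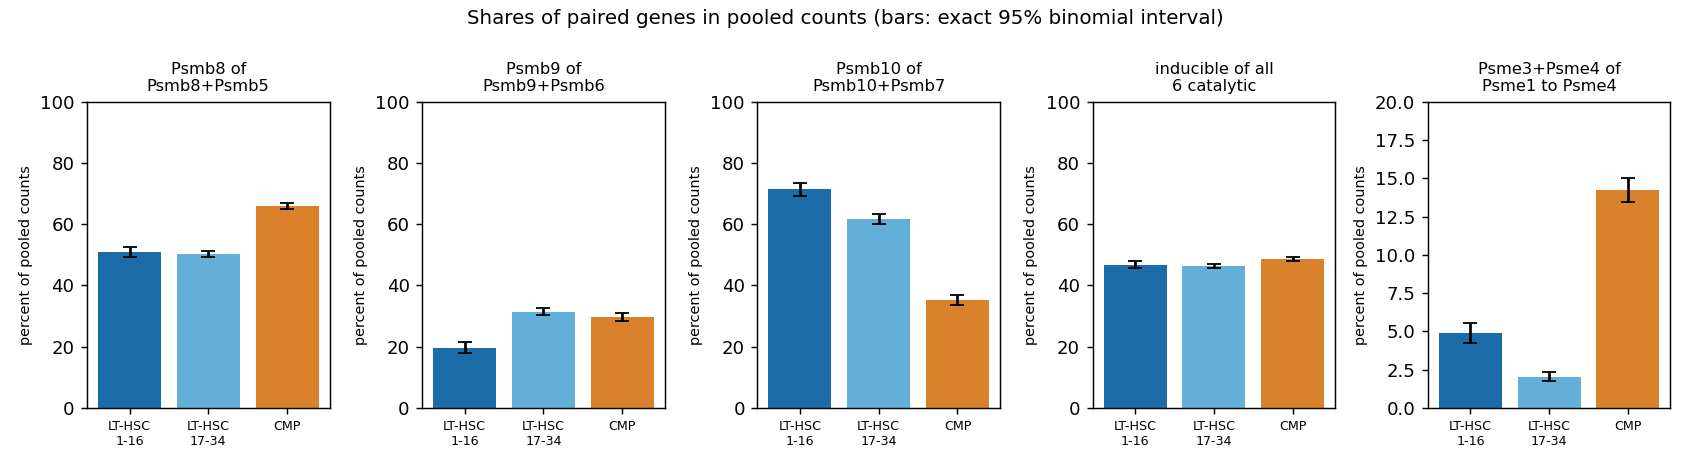
Share of the pooled counts of each gene pair (vertical axis, percent) in LT-HSC 1-16, LT-HSC 17-34 and CMP, with exact 95% binomial intervals as error bars; the last panel has its own axis. The Psmb10 share is 71.5%, 61.8% and 35.3%, while the share of all inducible genes is 46.7%, 46.4% and 48.7%.

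The 3 inducible genes themselves differed in which set was highest. Psmb8 had 503 CPM in LT-HSC 1-16, 716 CPM in LT-HSC 17-34 and 750 CPM in CMP. Single cells ran from 155 through a median of 463 to 1124 CPM in LT-HSC 1-16, from 6.31 through 680 to 1836 CPM in LT-HSC 17-34, and from 166 through 666 to 1625 CPM in CMP, with wide overlap. In CMP 1 and 2 it was at 1084 CPM, and the LT-HSC over CMP log2 ratio of -0.22 was -0.07 without them.

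Psmb9 had 126 CPM in LT-HSC 1-16, 272 CPM in LT-HSC 17-34 and 201 CPM in CMP, and was 2.15-fold lower in LT-HSC 1-16 than in LT-HSC 17-34. Leaving out 1 cell moved that log2 ratio of -1.11 between -1.44 (without LT-HSC 16) and -0.97. Its lowest, median and highest cells were 3.58, 121 and 382 CPM in LT-HSC 1-16, 0, 286 and 566 CPM in LT-HSC 17-34, and 30.2, 186 and 625 CPM in CMP. Of the LT-HSC, 10 of 34 lay below every CMP cell. Psmb9 shares exon sequence with Tap1, the peptide transporter gene beside it, on the opposite strand.

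Psmb10 had 377 CPM in LT-HSC 1-16, 289 CPM in LT-HSC 17-34 and 185 CPM in CMP, 1.73-fold higher in LT-HSC (log2 ratio 0.79, interval 0.69 to 0.88). The cell values ran from 9.60 through a median of 335 to 1009 CPM in LT-HSC 1-16, from 3.23 through 166 to 1666 CPM in LT-HSC 17-34, and from 17.4 through 168 to 494 CPM in CMP. The median cells of LT-HSC 17-34 and CMP were close, although the pooled values were not. Against CMP 1 and 2 alone the log2 ratio was 0.27. In LT-HSC 1-16, Psmb10 was 2.04-fold higher than in CMP, and the log2 ratio of 1.03 became 0.79 without LT-HSC 12.

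**Figure D4:**
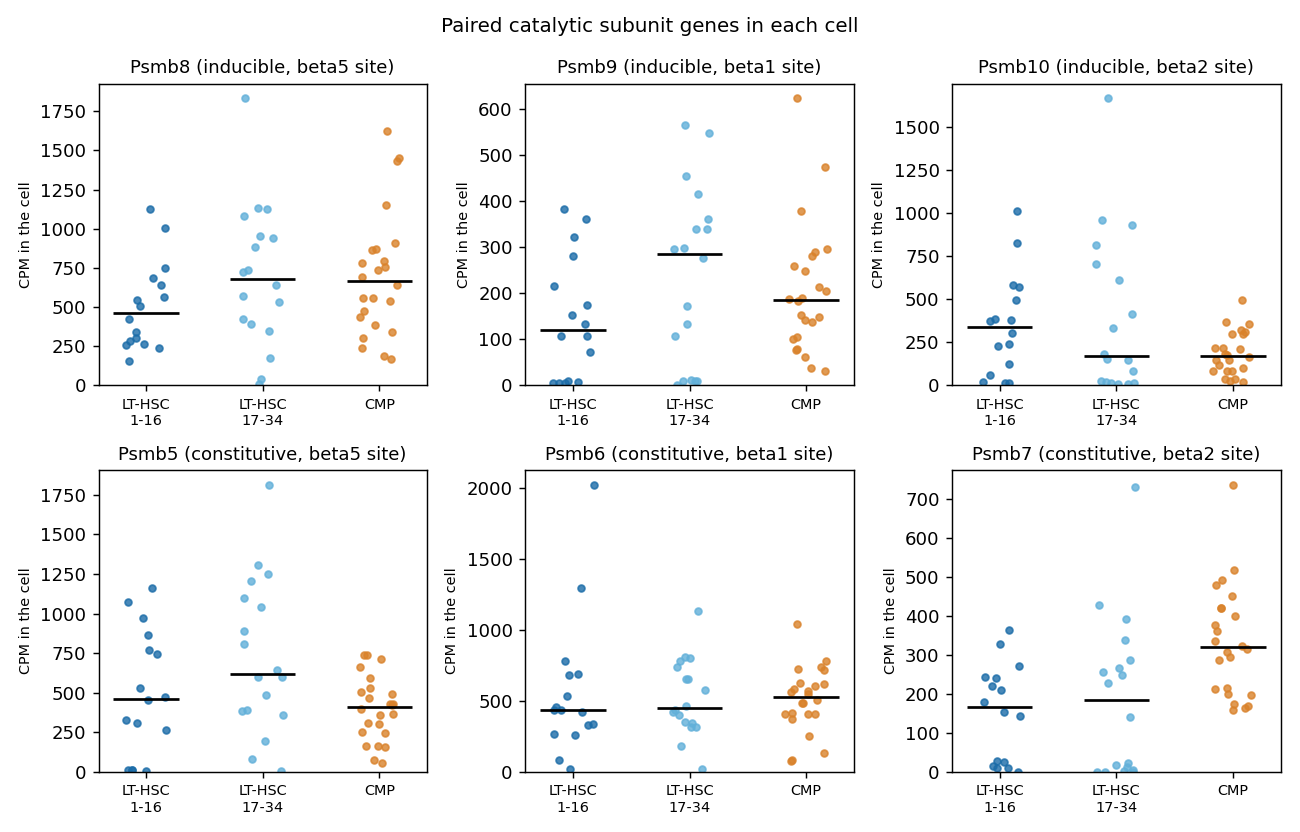
CPM of the 3 inducible (top) and 3 constitutive (bottom) catalytic subunit genes in each cell (vertical axis) of LT-HSC 1-16, LT-HSC 17-34 and CMP; bars are medians. For Psmb7, 17 of 34 LT-HSC lie below the lowest CMP cell at 159 CPM, and for Psmb10 the CMP cells end at 494 CPM while LT-HSC reach 1666 CPM.

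Single cells often held mostly 1 gene of a pair. The Psmb8 share of its pair ran from 25.8% to 97.6% over cells of LT-HSC 1-16, from 1.28% to 99.8% in LT-HSC 17-34 and from 29.1% to 93.9% in CMP, with at least 33 counts of the pair in every cell. The Psmb10 share ran from 8.33% to 100% in LT-HSC 1-16, from 2.38% to 100% in LT-HSC 17-34 and from 3.41% to 64.1% in CMP, and the cell with the fewest counts of that pair had only 2. The spread over cells in both gates was thus wider than the difference between the pools.

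In the regulatory cap, 3 of 17 genes were past 2-fold between LT-HSC and CMP, and 12 of the 17 were lower in LT-HSC. The median log2 ratio of the group was -0.09. It was -0.13 over all genes with at least 20 counts and -0.000 over those with at least 1000. The cap share was 19.5 per 10000 in the median cell of LT-HSC 1-16, 27.2 in LT-HSC 17-34 and 27.6 in CMP. The group splits into 6 ATPases of the unfolding ring (Psmc1 to Psmc6) and 11 non-ATPase subunits that bind, hold or trim ubiquitin chains or form the lid.

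The ATPases assemble in equal numbers in the cap, yet their RNA did not keep a fixed ratio between the sets. Psmc4 had 149 CPM in LT-HSC 1-16, 430 CPM in LT-HSC 17-34 and 163 CPM in CMP. Over cells it ran from 0 through a median of 146 to 417 CPM in LT-HSC 1-16, from 0 through 355 to 940 CPM in LT-HSC 17-34, and from 19.9 through 144 to 342 CPM in CMP. LT-HSC 17-34 thus stood apart, while the interval of the LT-HSC 1-16 over CMP log2 ratio of -0.13 ran from -0.28 to 0.02. Psmc4 was 2.63-fold higher in LT-HSC 17-34 than in CMP (log2 ratio 1.39, interval 1.30 to 1.5) and 2.88-fold lower in LT-HSC 1-16 than in LT-HSC 17-34. No CMP cell was above the LT-HSC 17-34 median. Against CMP 1 and 2 alone the LT-HSC 17-34 log2 ratio was 0.76. Over all LT-HSC it was 2.04-fold higher than CMP, and the log2 ratio of 1.03 became 0.86 without LT-HSC 34.

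Psmc6 had 85.3 CPM in LT-HSC 1-16, 118 CPM in LT-HSC 17-34 and 232 CPM in CMP, 2.17-fold lower in LT-HSC (log2 ratio -1.12, interval -1.23 to -1.01). In single cells it ran from 0 through a median of 14 to 332 CPM in LT-HSC 1-16, from 0 through 52.3 to 915 CPM in LT-HSC 17-34, and from 39.4 through 176 to 757 CPM in CMP. Of the LT-HSC, 19 of 34 lay below the lowest CMP cell, and all 24 CMP cells were above the LT-HSC median, although the ranges overlapped. Leaving out 1 cell moved the log2 ratio between -1.38 (without LT-HSC 20) and -0.91, and it was -0.70 against CMP 1 and 2 alone. The other 4 ATPases had LT-HSC over CMP log2 ratios from -0.33 for Psmc5 to 0.00 for Psmc2. All 6 ATPases were lower in LT-HSC 1-16 than in LT-HSC 17-34, with log2 ratios from -1.52 to -0.21.

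Of the non-ATPase subunits, Psmd2, a scaffold of the cap base that docks ubiquitin-carrying shuttles, was the lowest in LT-HSC. It had 73.0 CPM in LT-HSC 1-16, 51.7 CPM in LT-HSC 17-34 and 144 CPM in CMP, 2.43-fold lower in LT-HSC (log2 ratio -1.28, interval -1.43 to -1.14). Its cells ran from 0 through a median of 43.9 to 249 CPM in LT-HSC 1-16, from 0 through 8.94 to 252 CPM in LT-HSC 17-34, and from 12.4 through 119 to 479 CPM in CMP. Of the LT-HSC, 15 of 34 lay below the lowest CMP cell. CMP 19 supplied 18.2% of the CMP counts, and the log2 ratio was -1.08 without that cell, -0.88 with the CPM of single cells averaged and -0.97 against CMP 1 and 2 alone.

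The ubiquitin receptor Psmd4 had 142 CPM in LT-HSC 1-16, 272 CPM in LT-HSC 17-34 and 193 CPM in CMP, and was the highest non-ATPase subunit in LT-HSC relative to CMP, at a log2 ratio of 0.23. The deubiquitinase Psmd14, which cuts ubiquitin chains from substrates, had 138 CPM in LT-HSC 1-16, 204 CPM in LT-HSC 17-34 and 190 CPM in CMP. Single cells ran from 0 through a median of 108 to 462 CPM in LT-HSC 1-16, from 0 through 102 to 673 CPM in LT-HSC 17-34, and from 9.78 through 192 to 369 CPM in CMP. For both genes the pooled difference between the gates was small beside the range over cells.

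The lid gene Psmd6 had 84.2 CPM in LT-HSC 1-16, 184 CPM in LT-HSC 17-34 and 135 CPM in CMP, and its 2.19-fold lower level in LT-HSC 1-16 than in LT-HSC 17-34 shrank to a log2 ratio of -0.58 with the CPM of single cells averaged. Psmd12 had 197, 205 and 200 CPM in LT-HSC 1-16, LT-HSC 17-34 and CMP, and Psmd11 76.8, 69.9 and 77.3 CPM. Psmd11 was unevenly spread over cells and was detected in 20 of 34 LT-HSC and in all 24 CMP cells. The remaining subunits, Psmd1, Psmd7 and Psmd8, were within 2-fold in every comparison.

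For 2 lid genes single cells decided the pooled value. CMP 1 alone held 50.2% of the CMP counts of Psmd3, whose LT-HSC over CMP log2 ratio was -0.45 with it and 0.40 without it. Psmd3 had 85.0 CPM in LT-HSC 1-16, 35.4 CPM in LT-HSC 17-34 and 71.6 CPM in CMP, and LT-HSC 30 supplied 55.4% of the counts in LT-HSC 17-34. Leaving out LT-HSC 30 gave a log2 ratio of LT-HSC 1-16 to LT-HSC 17-34 of 2.35 in place of 1.26. Psmd13 had 14.1 CPM in LT-HSC 1-16, 37.9 CPM in LT-HSC 17-34 and 30.4 CPM in CMP. LT-HSC 15 supplied 93.8% of its counts in LT-HSC 1-16 and CMP 19 supplied 58.1% of those in CMP, so no order of the sets can be read from it.

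The assembly chaperones of the cap were low in all sets. Psmd5 had 61.0 CPM in LT-HSC 1-16, 83.0 CPM in LT-HSC 17-34 and 52.1 CPM in CMP, and its LT-HSC 1-16 over CMP log2 ratio of 0.23 became -0.38 without LT-HSC 4. Psmd9 had 71.8 CPM in LT-HSC 1-16, 47.2 CPM in LT-HSC 17-34 and 75 CPM in CMP, but LT-HSC 33 supplied 74.0% of its counts in LT-HSC 17-34, and omitting that cell made the LT-HSC 17-34 over CMP log2 ratio -2.41 in place of -0.67. The X-linked Psmd10 had 41.9 CPM in LT-HSC 1-16, 80.8 CPM in LT-HSC 17-34 and 61.7 CPM in CMP. None of the 3 was past 2-fold between LT-HSC and CMP, although Psmd9 was without LT-HSC 33, at a log2 ratio of -1.07.

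The activators split by type. Psme1 and Psme2, which form the cytosolic ring that interferon gamma induces, were higher in LT-HSC than in CMP by less than 2-fold. For Psme2 this came from LT-HSC 17-34, as LT-HSC 1-16 was below CMP. Psme3, which forms the nuclear ring, and Psme4, a large nuclear activator, were lower in LT-HSC by more than 2-fold. Together Psme3 and Psme4 made up 4.87% of the counts of the 4 activator genes in LT-HSC 1-16 (interval 4.23 to 5.57), 2.04% in LT-HSC 17-34 (1.75 to 2.36) and 14.2% in CMP (13.4 to 15). The CMP share was 18% in CMP 1 and 2 and 13.4% in CMP 3 to 24, so the pooled share of either was above that of both LT-HSC sets.

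Psme1 had 804 CPM in LT-HSC 1-16, 716 CPM in LT-HSC 17-34 and 518 CPM in CMP, 1.44-fold higher in LT-HSC (log2 ratio 0.53, interval 0.47 to 0.59). The cell values ran from 291 through a median of 677 to 1416 CPM in LT-HSC 1-16, from 367 through 751 to 1112 CPM in LT-HSC 17-34, and from 86.1 through 477 to 938 CPM in CMP. Of the LT-HSC, 28 of 34 were above the CMP median, and the ranges overlapped. Psme1 was also among the steadiest members over cells, and leaving out any 1 cell, or CMP 1 and 2, left its log2 ratio above 0. Its exons overlap Emc9 on the opposite strand. Psme2 had 353 CPM in LT-HSC 1-16, 566 CPM in LT-HSC 17-34 and 384 CPM in CMP, so LT-HSC 17-34 was the highest set. Over cells it ran from 7.69 through a median of 277 to 1019 CPM in LT-HSC 1-16, from 125 through 532 to 947 CPM in LT-HSC 17-34, and from 34.2 through 334 to 864 CPM in CMP.

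Psme3 had 46.0 CPM in LT-HSC 1-16, 18.6 CPM in LT-HSC 17-34 and 88.4 CPM in CMP, 3.15-fold lower in LT-HSC (log2 ratio -1.66, interval -1.87 to -1.45). In single cells it ran from 0 through a median of 6.94 to 286 CPM in LT-HSC 1-16, from 0 through 0 to 178 CPM in LT-HSC 17-34, and from 0 through 37.9 to 349 CPM in CMP. A count was found in 19 of 34 LT-HSC and 22 of 24 CMP cells, and after thinning in 11 of 30 and 17 of 22. The log2 ratio was -1.36 without CMP 1 and 2, -2.53 against them alone, -1.10 after thinning and -1.20 with the CPM of single cells averaged, past 2-fold in each case. For LT-HSC 1-16 alone it was -0.94, short of 2-fold.

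Psme4 had 13.2 CPM in LT-HSC 1-16, 8.13 CPM in LT-HSC 17-34 and 61.2 CPM in CMP, 6.17-fold lower in LT-HSC (log2 ratio -2.63, interval -2.96 to -2.31), the lowest of all 46 genes. Its cells had a median of 0 in both LT-HSC sets, with highest values of 112 CPM in LT-HSC 1-16 and 278 CPM in LT-HSC 17-34, and ran from 0 through a median of 22.7 to 238 CPM in CMP. A count was found in 8 of 34 LT-HSC and 21 of 24 CMP cells, and after thinning in 4 of 30 and 17 of 22. LT-HSC 28 supplied 83.0% of the counts in LT-HSC 17-34, and leaving that cell out gave a log2 ratio of -3.46 for all LT-HSC to CMP. LT-HSC 16 supplied 64.4% of those in LT-HSC 1-16, where the ratio to CMP of -2.20 became -3.51 once this cell was removed. The log2 ratio of all LT-HSC to CMP was -1.74 after thinning and -1.43 against CMP 1 and 2 alone. More genes were detected per CMP cell than per LT-HSC at equal depth, as given above, and the part of that in the lower Psme3 and Psme4 values was not tested.

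**Figure D5:**
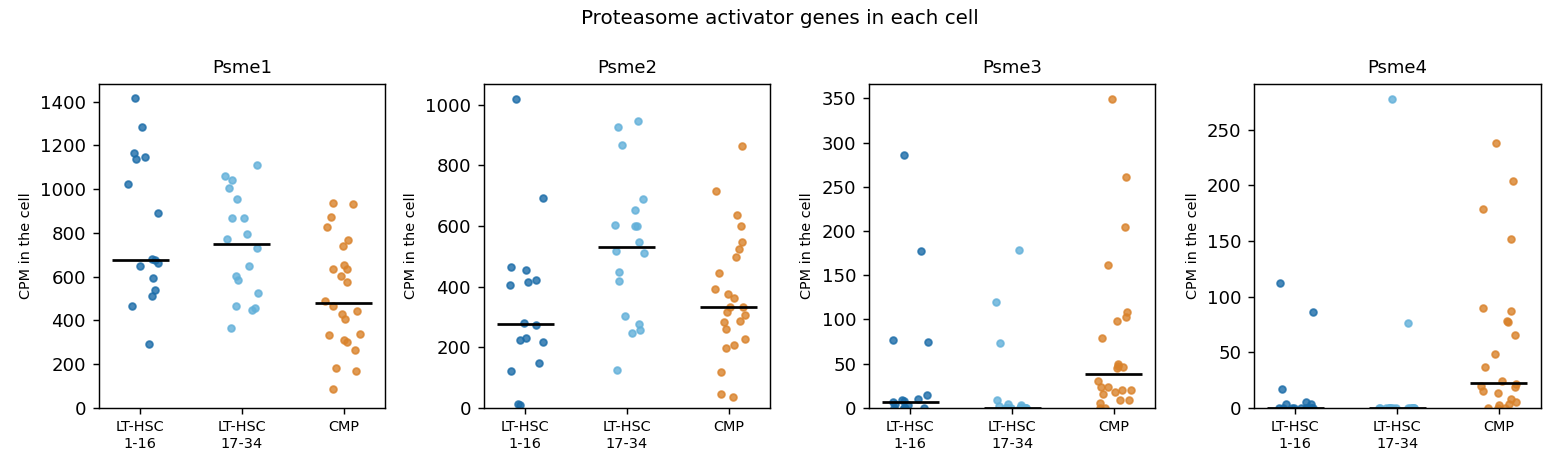
CPM of the 4 proteasome activator genes in each cell (vertical axis, a separate scale for each gene) of LT-HSC 1-16, LT-HSC 17-34 and CMP; bars are medians. Psme1 has medians of 677, 751 and 477 CPM, while Psme4 has a median of 0 in both LT-HSC sets and 22.7 CPM in CMP.

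Psmf1, the inhibitor, had 36.1 CPM in LT-HSC 1-16, 41.7 CPM in LT-HSC 17-34 and 35.3 CPM in CMP. Its pooled levels were alike but its spread was not, since a count was found in 15 of 34 LT-HSC and in all 24 CMP cells. LT-HSC 21 supplied 56.6% of the counts in LT-HSC 17-34, and removing that cell moved the LT-HSC over CMP log2 ratio to -0.46 in place of 0.17.

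The sequence before the start of each cap or activator gene that was past 2-fold between LT-HSC and CMP is shown where RefSeq (GRCm38.p6) gave one, to let the higher gene be read beside the lower ones. Each runs 5′ to 3′ on the gene's strand, bases that the annotation places in an exon were left out, and capitals mark matches to the motifs named below. Psmc4, the higher gene, is on the minus strand at chr7:28050102-28050342. The lower genes are on the plus strand, Psmc6 at chr14:45329574-45329787, Psmd2 at chr16:20651402-20651651, Psme3 at chr11:101315963-101316212 and Psme4 at chr11:30771525-30771725.
Psmc4: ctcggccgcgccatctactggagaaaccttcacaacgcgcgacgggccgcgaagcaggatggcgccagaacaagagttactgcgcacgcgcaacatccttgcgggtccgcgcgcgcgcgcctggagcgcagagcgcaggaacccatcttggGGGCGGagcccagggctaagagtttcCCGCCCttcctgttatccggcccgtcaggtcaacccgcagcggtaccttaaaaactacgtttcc
Psmc6: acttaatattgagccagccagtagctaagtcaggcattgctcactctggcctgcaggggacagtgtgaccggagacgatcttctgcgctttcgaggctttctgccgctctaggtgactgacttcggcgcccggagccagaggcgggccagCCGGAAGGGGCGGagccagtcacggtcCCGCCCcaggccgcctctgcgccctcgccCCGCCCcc
Psmd2: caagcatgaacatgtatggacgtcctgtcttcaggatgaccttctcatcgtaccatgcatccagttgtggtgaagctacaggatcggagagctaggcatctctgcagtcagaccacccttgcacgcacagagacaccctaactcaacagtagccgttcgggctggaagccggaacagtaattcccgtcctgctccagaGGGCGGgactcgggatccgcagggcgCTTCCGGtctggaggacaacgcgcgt
Psme3: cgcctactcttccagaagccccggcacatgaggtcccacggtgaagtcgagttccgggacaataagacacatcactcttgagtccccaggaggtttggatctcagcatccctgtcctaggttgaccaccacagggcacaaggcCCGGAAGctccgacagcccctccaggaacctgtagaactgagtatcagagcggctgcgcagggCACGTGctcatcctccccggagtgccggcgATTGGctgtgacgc
Psme4: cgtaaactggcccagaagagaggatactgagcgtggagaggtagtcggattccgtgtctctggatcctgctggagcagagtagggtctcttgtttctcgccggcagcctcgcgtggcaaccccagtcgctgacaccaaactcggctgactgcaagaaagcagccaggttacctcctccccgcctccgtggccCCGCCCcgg

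The windows were rich in G and C, from 57.6% in Psmd2 to 66.4% in Psmc6, and Psmc4 held 29 CG pairs. The GC box GGGCGG, searched on both strands as all motifs were, matched in Psmc4, Psmc6, Psmd2 and Psme4 and not in Psme3, so it stood before the higher gene and before lower genes alike. The ETS-type motif CCGGAAG matched in Psmc6, Psmd2 and Psme3, and in Psme4 only with the exon bases left in. The ETS-type and GC box matches abut in Psmc6 and no others shown overlap. Psme3 also held the E-box CACGTG and a CCAAT box. Over the full 250 bases before the start, with exon bases kept, the GC box was in 21 of the 39 members with a RefSeq window (53.85%). It was in 32.65% of all 27025 mouse promoters. The ETS-type motif was in 11 of 39 (28.21%) and in 7.14%. Members also had a higher median G and C content, at 57.6%, against 52.0% over all promoters, and the part of base content in the motif shares was not tested. A pair of GAAA runs with 2 bases between them, an interferon-type motif, was in 3 of 39 (Psmb3, Psmd4 and Psmd9) and in 3.06% of all promoters. TTCNNNGAA was in 1 of 39 (Psmb8) and in 7.11%, and TGANTCAGC in 0 of 39 and in 0.97%. A match is a run of letters and no measured binding site.

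The tissue-limited subunits were both missing from some cells of every set. Psmb11, a beta5 subunit known from thymus cortical epithelium, had 2.93 CPM in LT-HSC 1-16, 3.22 CPM in LT-HSC 17-34 and 6.65 CPM in CMP, and was detected in 16 of 34 LT-HSC and 12 of 24 CMP cells. It had 31 counts in LT-HSC and 47 in CMP, and its log2 ratio of -1.08 became -0.78 without CMP 1. Psma8, an alpha subunit known from the testis, had 42.5 CPM in LT-HSC 1-16, 18.7 CPM in LT-HSC 17-34 and 6.37 CPM in CMP. Its counts sat in few cells, 3 of 16 in LT-HSC 1-16, 4 of 18 in LT-HSC 17-34 and 8 of 24 in CMP, with 72.4% of the LT-HSC 1-16 counts in LT-HSC 7. Omitting LT-HSC 7 turned the ratio of LT-HSC 1-16 to LT-HSC 17-34 to -0.57 on the log2 scale, in place of 1.18. Psme2b had 22, 18.2 and 21.8 CPM in LT-HSC 1-16, LT-HSC 17-34 and CMP, and its counts are uncertain because its sequence is close to that of Psme2. Psmc3ip had 31.4, 37.3 and 63.0 CPM in the same sets.

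How evenly cells carried a member depended on its group. The coefficient of variation of CPM over cells had a median over the 14 core genes of 79.1% in LT-HSC 1-16, 67.4% in LT-HSC 17-34 and 47.4% in CMP. Counting error alone, with each count taken as an independent event, would give 12.3%, 10.6% and 9.84%. Over the 17 cap genes the medians were 115%, 116% and 71.0%, with 21.8%, 18.5% and 16.7% from counting error. Gene by gene, cells of both LT-HSC sets were thus less alike than CMP cells in both groups. For the summed core share this was not so. Its standard deviation over cells was 10.2 per 10000 in LT-HSC 1-16, 15.7 in LT-HSC 17-34 and 16.3 in CMP. The medians were 57.4, 75.7 and 70.3. For the summed cap share it was 8.90, 8.05 and 5.10, with medians of 19.5, 27.2 and 27.6. The part of the fewer genes detected per LT-HSC in these spreads was not tested. Within the core, Psma3 was the steadiest in LT-HSC 1-16 (43.0%), Psmb3 in LT-HSC 17-34 (40.7%) and Psmb1 in CMP (29.2%). Psme1 was steadier than any core gene in both LT-HSC sets, at 40.7% and 32.2%, but not in CMP, at 48.0%. A cell with all 31 core and cap genes detected was common in CMP, where the median cell held 31, against 28 in LT-HSC 1-16 and 26.5 in LT-HSC 17-34, and 30, 26 and 25 after thinning.

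Between the LT-HSC sets, 27 of the 31 core and cap genes were lower in LT-HSC 1-16, and the median log2 ratio was -0.35 in the core and -0.31 in the cap. The exceptions were Psma5, Psmd2, Psmd3 and Psmd11. Many abundant genes leaned the same way, since 62% of all genes with at least 1000 counts were lower in LT-HSC 1-16 and their median was -0.25. Ribosomal protein genes took 2677 per 10000 counts in the median cell of LT-HSC 1-16 and 2244 in LT-HSC 17-34. With those genes left out of the totals the core median was -0.25. The 10 cell cycle genes listed summed to 2.59 per 10000 in the median cell of LT-HSC 1-16, 10.1 in LT-HSC 17-34 and 19.8 in CMP, and 8 of the 10 were past 2-fold lower in LT-HSC 1-16 than in LT-HSC 17-34, as were 28% of all genes with at least 20 counts. The stem cell markers differed between these sets as well, at 1136 CPM in LT-HSC 1-16 and 559 CPM in LT-HSC 17-34. The part of cycling, of the ribosomal share or of the stem cell markers in the proteasome values was not tested.

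Genes that build, feed or control the proteasome were taken as lists by role. The counts of each list stand beside 22.7% of all genes past 2-fold higher and 28.1% past 2-fold lower in LT-HSC than in CMP. Of the 5 core assembly chaperones, 1 was past 2-fold, Psmg2, with 81.9 CPM in LT-HSC and 172 CPM in CMP, and its log2 ratio of -1.07 was 0.45 against CMP 1 and 2 alone. Pomp, which matures the beta subunits, had 439 CPM in LT-HSC and 586 CPM in CMP, and Psmg1 and Psmg4 were the highest of the list in LT-HSC, at log2 ratios of 0.55 and 0.34. Of 14 partners of the cap, none was past 2-fold higher and 4 were lower in LT-HSC: the protease Ddi2 and the shuttle Rad23b, and, named here after their values were seen, the shuttle Ubqln1 and the ligase Ube3c. Ddi2 had no count in LT-HSC and 23 in CMP, at least 10.8-fold lower in LT-HSC with a floor of 3 counts in the pool, and stood at 15.5 CPM in CMP 1 and 2 and 0.52 CPM in CMP 3 to 24. Rad23b had 14.8 CPM in LT-HSC and 48.0 CPM in CMP, and its log2 ratio of -1.69 became -2.38 without LT-HSC 16. Ubqln1 was at -1.69 and at 0.27 against CMP 1 and 2 alone, and Ube3c at -1.07 and 0.48. The highest partners, the cofactor Txnl1 and the deubiquitinase Usp14, were at 0.23 and 0.16.

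Of 7 regulators of proteasome genes with counts, 1 was past 2-fold between the gates: Nfe2l1, the factor known to raise subunit genes when the proteasome fails, had 9.36 CPM in LT-HSC and 21.9 CPM in CMP. Its processing enzyme Ngly1 had 17.0 CPM in LT-HSC and 33.3 CPM in CMP, and its log2 ratio of -0.97 became -0.26 without CMP 19. Akirin2, which is known to carry proteasomes into the nucleus, was at a log2 ratio of 0.84, and at 1.44 without CMP 19. Of 9 genes for ubiquitin and its activation, only Uba6, an alternative activating enzyme, was past 2-fold, with 2.92 CPM in LT-HSC and 9.20 CPM in CMP, and its log2 ratio of -1.64 became -2.83 without LT-HSC 10. The main activating enzyme Uba1 had 103 CPM in LT-HSC and 173 CPM in CMP. The polyubiquitin gene Ubb was at a log2 ratio of 0.74.

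Of the 5 genes of the Vcp unfoldase, which extracts ubiquitin-marked proteins, the adaptor pair was lower in LT-HSC. Nploc4 had 1.61 CPM in LT-HSC and 30.4 CPM in CMP, with its log2 ratio of -4.20 at -6.03 without LT-HSC 30. Ufd1l had 13.2 CPM in LT-HSC and 61.3 CPM in CMP, while Vcp itself was level at 335 CPM in LT-HSC and 326 CPM in CMP. The cofactor Nsfl1c was at a log2 ratio of 0.61. Of 8 genes of MHC class I peptide handling, B2m and Tap2 were past 2-fold higher in LT-HSC (22.7% of all genes). Canx, Tap1 and Erap1 were past 2-fold lower (28.1% of all genes). B2m, the class I light chain, had 10627 CPM in LT-HSC and 4866 CPM in CMP. The subunit genes of the peptide transporter ran in opposite directions, Tap1 with 43.7 CPM in LT-HSC and 101 CPM in CMP, and Tap2 with 78.3 CPM in LT-HSC and 33.3 CPM in CMP.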

How the data were processed

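Single cells of 2 sorted gates were measured, 34 LT-HSC and 24 CMP. The authors deposited a table of counts per gene symbol for each cell; whether a count is a molecule or a read is not given in the sources used here. The submitters' processing notes list the genome build mm10 and the programs TopHat2 2.0.12, HTSeq and Seurat 2.0 without saying what each was used for. All cells were kept and no doublet caller was run. Each set's cells were pooled by adding their counts, then scaled to the pool's total (CPM, not divided by gene length, so levels are compared between sets and not between genes). Log2 ratios have 0.5 added to each count and exact conditional binomial 95% intervals; CPM intervals are exact Poisson and shares Clopper-Pearson. All cover counting error only and take each count as an independent event. They would be too narrow if several counts were reads of the same molecule. The scripts were tested on simulated data. Thinning drew 97978 counts from each cell and left out 4 LT-HSC and 2 CMP cells. The members, lists and the division at LT-HSC 16 were chosen with earlier results of these data known. By rule, values were given for the 6 paired catalytic subunits, Psme1 to Psme4, Psmf1, Psmd2, Psmd4, Psmd14, the 3 highest and 3 lowest core and cap genes of each comparison, and the 2 highest and 2 lowest LT-HSC over CMP ratios of each pathway list; other genes named were chosen after their values were seen. Listed symbols Shfm1, AI314180 and Ufd1l were used, and Nfe2l3 had no count. Promoters came from RefSeq (GRCm38.p6), matched by symbol for 39 of 46 members; Psma8, Psmb1, Psmb2, Psmb7, Psmc3, Psmd3 and Psmd7 had no entry. Python 3.11.15, numpy 2.4.6, scipy 1.17.1, pandas 2.3.3 and matplotlib 3.10.9 were used. Some genes of the marker and pathway lists are not reported here.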

Additional observations from a re-analysis of the deposited data

How the results depend on the processing

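Group medians are log2 ratios, and the share is the difference in percentage points of the inducible genes among the paired catalytic counts. The activator median lies between genes that differed in opposite directions and does not give the summed level. Summed activator counts were 12.8 per 10000 in the LT-HSC pool and 10.5 in the CMP pool. They were 12.2 in LT-HSC 1-16 and 13.1 in LT-HSC 17-34. Of the alternative values, 147 stayed within the counting interval of the original (for counts of background genes, within 1.5 times) and 75, given here, did not. The settings that moved a value were the CPM of single cells averaged (averaged), scaling by the median of gene ratios (ratio-scaled), totals without ribosomal protein genes, thinning to 97978 counts, CMP without CMP 1 and 2 or CMP 1 and 2 alone, and 1 cell left out at a time. Leaving out the shallowest cells, adding 1 to each count and a minimum of 100 counts or 1 count moved none. The 2 minimums could not move a group median, because every gene of these groups passed both. Their unchanged values are among the 147. No paired analysis was possible because each gate is 1 sample, no test was run and the cell numbers pair nothing.

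For LT-HSC over CMP, the core value of 0.005 became -0.13 averaged, 0.14 ratio-scaled, -0.15 thinned, -0.084 (without LT-HSC 33) to 0.066 (without CMP 2). The immunoproteasome value of 0.14 became -0.053 averaged, 0.28 ratio-scaled, -0.030 thinned, 0.27 CMP 1 and 2 alone, 0.065 (without CMP 19) to 0.30 (without CMP 18). The cap value of -0.086 became 0.046 ratio-scaled. The activator value of -0.65 became -0.48 averaged, -0.46 thinned, -0.50 no CMP 1 and 2, -0.80 (without LT-HSC 15) to -0.51 (without CMP 2). The share value of -2.21 became -0.11 averaged, 1.26 thinned, 0.99 no CMP 1 and 2, -15.71 CMP 1 and 2 alone, -3.18 (without LT-HSC 24) to 0.12 (without LT-HSC 18).

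For LT-HSC 1-16 over CMP, the core value of -0.34 became -0.097 ratio-scaled, -0.23 no ribosomal genes, -0.48 CMP 1 and 2 alone, -0.45 (without LT-HSC 16) to -0.27 (without LT-HSC 6). The immunoproteasome value of -0.57 became -0.48 averaged, -0.33 ratio-scaled, -0.46 no ribosomal genes, -0.46 thinned, -0.42 no CMP 1 and 2, -0.46 CMP 1 and 2 alone, -0.65 (without LT-HSC 3) to -0.45 (without CMP 2). The cap value of -0.35 became -0.11 ratio-scaled, -0.66 CMP 1 and 2 alone. The activator value of -0.53 became -0.28 ratio-scaled, -0.90 (without LT-HSC 15) to -0.39 (without CMP 2). The share value of -1.98 became 1.13 thinned, 1.21 no CMP 1 and 2, -15.49 CMP 1 and 2 alone, -3.98 (without LT-HSC 12) to 0.84 (without LT-HSC 15).

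For LT-HSC 17-34 over CMP, the core value of 0.16 became 0.049 averaged, 0.31 ratio-scaled, 0.019 thinned, 0.081 (without LT-HSC 18) to 0.22 (without CMP 2). The immunoproteasome value of 0.44 became 0.24 averaged, 0.58 ratio-scaled, 0.13 CMP 1 and 2 alone, 0.36 (without LT-HSC 30) to 0.59 (without CMP 18). The cap value of -0.016 became 0.13 ratio-scaled, -0.14 thinned, -0.15 (without LT-HSC 34) to 0.11 (without LT-HSC 17). The activator value of -0.89 became -0.52 averaged, -0.49 thinned, -0.57 CMP 1 and 2 alone, -1.17 (without LT-HSC 26) to -0.73 (without CMP 2). The share value of -2.30 became 1.09 averaged, 1.35 thinned, 0.89 no CMP 1 and 2, -15.80 CMP 1 and 2 alone, -3.69 (without LT-HSC 24) to 1.15 (without LT-HSC 18).

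For LT-HSC 1-16 over LT-HSC 17-34, the core value of -0.35 became -0.25 no ribosomal genes, -0.46 (without LT-HSC 17) to -0.21 (without LT-HSC 34). The immunoproteasome value of -0.51 became -0.41 no ribosomal genes, -0.68 (without LT-HSC 12) to -0.41 (without LT-HSC 34). The activator value of 0.43 became -0.16 averaged, -0.23 thinned, -0.24 (without LT-HSC 16) to 0.72 (without LT-HSC 28). The share value of 0.31 became -2.87 averaged, -3.13 (without LT-HSC 18) to 3.13 (without LT-HSC 15).

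In all 3 comparisons with CMP the share difference turned sign after thinning, without CMP 1 and 2, and with 1 LT-HSC cell left out. Genes with at least 1000 counts were taken as a background after seeing the data. Depth limits the members with fewest counts, such as Psmb11 with 31 counts in LT-HSC and 47 in CMP. The cause of these moves was not tested.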
